A study of Bubalus bubalis with 12 samples.

Results

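The genes described here build and run microtubule tracks: dynein and kinesin motors, the tubulins they walk on, the gamma-tubulin complex that seeds new microtubules, and the intraflagellar transport (IFT) proteins that carry cargo along a cilium or flagellum. Members were chosen by symbol alone, as gene names beginning with DNAH, DNAI, DNAL, DYNC, DYNL, KIF, IFT, TUBA, TUBB or TUBG followed by a digit or an I, together with the DYNLL, DYNLT, DYNLRB and TUBGCP genes, a rule on symbols that uses no measured value. Of 51 such symbols on the array, 43 had at least 2 probes and were tested among 6805 genes in all. They comprised 5 axonemal dynein genes, 5 IFT genes, 17 kinesins, 5 cytoplasmic dynein genes, 8 tubulins and 3 genes of the gamma-tubulin complex.

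Spermatozoa from frozen semen of 6 water buffalo (Bubalus bubalis) bulls were profiled, 3 labelled as high fertile (HF2, HF3 and HF5) and 3 as subfertile (SF1, SF4 and SF5). For each bull, chromatin cut with micrococcal nuclease was precipitated with an antibody to H3K4me2 and with one to H3K27me3, and each precipitate (Cy5) was hybridised against that bull's own input (Cy3), which gave 12 two-colour arrays. The labels give no breed, age or measure of fertility for any group, and both groups share the same tissue, antibodies and amplification. Values below are log2 ratios of ChIP signal to input signal, centred on the array's median and averaged over a gene's probes, so 0 is the array's median and not the absence of a mark. Each group holds 3 bulls with 1 array per mark. SEs, confidence intervals and p-values come from limma, whose eBayes step draws each gene's spread between bulls toward a value shared by all genes tested. An SE can therefore be larger or smaller than these bulls' own spread gives, whereas SDs are of the bulls alone.

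The flagellum of a sperm cell is an axoneme of microtubule doublets bent by axonemal dyneins, which are assembled with the help of intraflagellar transport during spermatid development. Mature sperm have largely stopped transcription and carry most of their DNA on protamines, so histone marks sit on the nucleosomes that remain, many of them at CpG-rich promoters. H3K4me2 marks promoters of active or poised genes, and H3K27me3 is placed by Polycomb at silenced developmental genes; mitotic kinesins and housekeeping tubulins are genes of dividing or somatic cells as well as of the germ line.

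The 43 genes lay on 22 chromosomes or unplaced scaffolds of the cattle build HGSC Btau_3.1, for which the array was designed, and 38 of their symbols are also in the buffalo RefSeq gene table. They held 870 probes of 60 bases, of which the array's annotation places 799 in a CpG island, 39 in a promoter and 32 in a coding region. The array places 843 of these probes to their 60 bases and 27 to a wider region only. Overlapping probes among the 843 merged into 158 stretches of continuous sequence, 13 genes had 1 such stretch, of which IFT74, DNAH9, DNAL4, KIF20A and KIF22 also had probes placed to a region only, and the genes had a median of 7 probes per gene. The extremes were DYNC1H1 with 240 probes and 7 genes with 2 probes each. Mean G and C content of a gene's probes ran from 39.2% in TUBB6 to 58.3% in KIF3A, with a median of 51.2%.

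The sequences that follow are probed stretches of the 6 genes whose groups did not overlap in one mark and of KIF5A, the lowest gene in both marks, read from the array's probes on the plus strand of HGSC Btau_3.1, with each CG dinucleotide in capitals. IFT81, an IFT subunit, was read over chr17:56798960-56799023 by 2 probes. TUBA8, an alpha-tubulin, was read over chr5:116406596-116406659 by 2 probes. KIF2C is given at the stretch chr3:108127687-108127760, which held 5 of its 7 probes and the most CG dinucleotides of its 3 stretches, 9. KIF22 was read at chr25:28250715-28250825, KIF23 at chr10:16543399-16543474 and KIF5A at chr5:60388393-60388468. For TUBGCP2, 3 stretches are shown because the gene's values differed between them: chr26:51596341-51596400 was higher in the high-fertile bulls, chr26:51602621-51602732 was lower, and chr26:51604830-51604924 was below the array median in all bulls in H3K4me2.
IFT81: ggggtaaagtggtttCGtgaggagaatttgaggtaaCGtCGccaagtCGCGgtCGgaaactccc
TUBA8: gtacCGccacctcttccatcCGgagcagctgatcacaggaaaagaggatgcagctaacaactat
KIF2C: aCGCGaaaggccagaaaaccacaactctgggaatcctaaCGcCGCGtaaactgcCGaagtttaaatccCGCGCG
KIF22: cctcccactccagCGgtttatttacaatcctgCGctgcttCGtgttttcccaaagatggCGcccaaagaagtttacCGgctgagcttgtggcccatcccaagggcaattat
KIF23: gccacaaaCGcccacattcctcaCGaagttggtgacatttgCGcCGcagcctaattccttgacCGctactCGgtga
KIF5A: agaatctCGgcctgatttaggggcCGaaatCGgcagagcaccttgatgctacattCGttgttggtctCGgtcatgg
TUBGCP2 at 51596341: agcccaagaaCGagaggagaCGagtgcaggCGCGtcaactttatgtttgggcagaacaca
TUBGCP2 at 51602621: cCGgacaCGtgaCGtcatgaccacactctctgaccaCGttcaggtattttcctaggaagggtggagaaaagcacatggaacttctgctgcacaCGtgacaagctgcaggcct
TUBGCP2 at 51604830: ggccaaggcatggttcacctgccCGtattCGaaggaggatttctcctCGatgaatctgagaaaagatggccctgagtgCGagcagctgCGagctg
The IFT81 stretch holds 6 CG dinucleotides in 64 bases and the TUBA8 stretch 2 in the same length. The gene part (exon, intron or untranslated region) under these stretches is not stated here, because no annotation of this build was used.

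On every array at least 97.1% of probes had input signal above background, and at least 93.9% had such ChIP signal. Of the 10440 ChIP spots of the 43 genes, 123 were not well above background, in 17 genes, and 5 were saturated. No gene of the array passed an adjusted p of 0.05 in any of the 6 comparisons made, so all member values below are descriptions with their errors. IFT74 shares runs of 25 bases with 6 probes of PLAA and KIF20A with 1 probe of an unnamed CpG island, so these values are not independent of their neighbours. No tubulin probe shared such a run with another gene's probe, but alpha- and beta-tubulin genes resemble each other closely and cross-hybridisation to copies without probes was not tested.

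**Figure D1:**
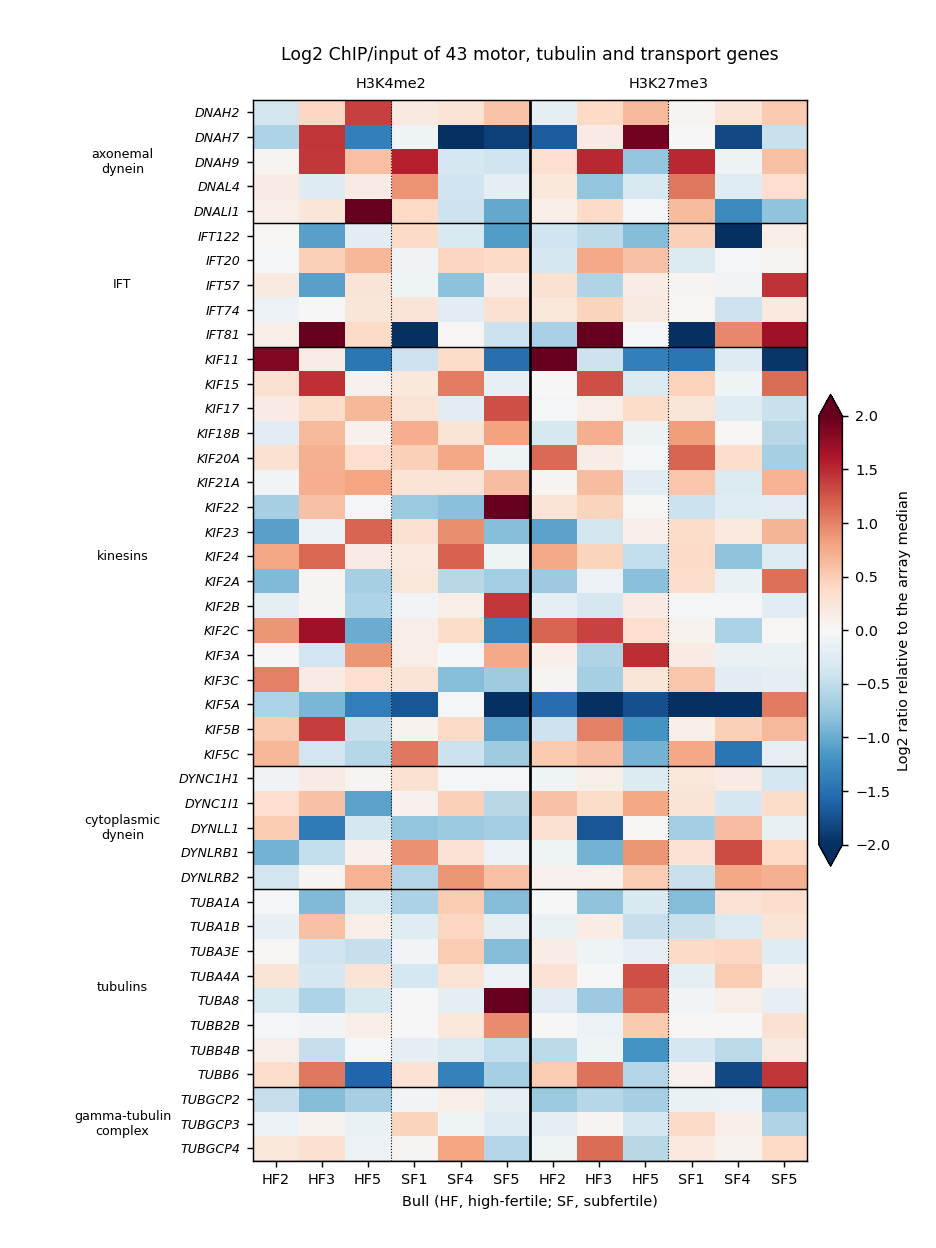
Log2 ChIP/input of the 43 genes (rows, grouped by family) in each bull (columns) for H3K4me2 and H3K27me3, with the array median as 0 and colours ending at 2 log2 units in either direction. KIF5A stands below the median in 11 of 12 columns, DYNC1H1 stays near 0 throughout, and IFT81 runs from -2.62 in SF1 to 2.90 in HF3.

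The first question was whether the marks at these genes differ between high-fertile and subfertile bulls. For H3K4me2, 22 members had a higher and 21 a lower mean in the high-fertile bulls. The median difference was 0.03 log2 units, against -0.02 over all 6805 genes, and single members ranged from -1.11 in TUBA8 to 1.86 in IFT81. In limma's test 0 of 43 members passed an adjusted p of 0.05, against 0% of all genes, and 1 had an unadjusted p below 0.05, against 2.91% of all genes. The groups did not overlap in 3 members, or 6.98%, against 6.58% of all genes. In 1 of them the high-fertile bulls were higher, against 3.48% of all genes, and in 2 lower, against 3.1%. The median half-width of the 95% confidence interval was 1.16 log2 units, so differences smaller than that could not be resolved in a typical member.

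IFT81, which with IFT74 forms the part of IFT complex B that binds tubulin, had the largest H3K4me2 difference of the 43. Its log2 ratio was 0.11 in HF2, 2.05 in HF3 and 0.39 in HF5, and -2.62 in SF1, 0.03 in SF4 and -0.43 in SF5. All 3 high-fertile bulls lay above all 3 subfertile bulls, with HF2 and SF4 only narrowly apart. The means were 0.85 ± 1.05 (SD, n = 3) and -1.01 ± 1.42 (SD, n = 3), a difference of 1.86 log2 units with a 95% confidence interval from 0.05 to 3.66, and limma's adjusted p was 1.0. The difference was 1.05 without SF1. The 2 bulls at the ends also stood apart in input DNA: centred log2 input signal at IFT81 was -2.51 in HF3 and 1.73 in SF1, and between -0.40 and 0.10 in the other 4 bulls. With the mean input of the 6 bulls as denominator the difference was 0.51, and within the slide that held HF5 and SF1 it was 3.02. The partner gene IFT74 differed by -0.07, with values from -0.21 to 0.31.

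TUBA8, a divergent alpha-tubulin expressed in testis among other tissues, had the lowest H3K4me2 difference. Its log2 ratio was -0.31 in HF2, -0.62 in HF3 and -0.32 in HF5, and 0.01 in SF1, -0.18 in SF4 and 2.26 in SF5. The high-fertile bulls lay below the subfertile ones, and SF5 stood far above the other 5 bulls. The difference was -1.11 (SE 0.66; limma's adjusted p 1.0) and -0.33 without SF5. It was -0.71 with the mean input of the 6 bulls and -0.73 after within-array loess.

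TUBGCP2, a core subunit of the gamma-tubulin complex, had an H3K4me2 log2 ratio of -0.46 in HF2, -0.87 in HF3 and -0.66 in HF5, and of -0.06 in SF1, 0.13 in SF4 and -0.19 in SF5. All high-fertile bulls lay below all subfertile bulls, with little spread in either group. The means were -0.66 ± 0.21 (SD, n = 3) and -0.04 ± 0.16 (SD, n = 3), a difference of -0.62 (SE 0.40; limma's adjusted p 1.0), or -0.31 with the mean input of the 6 bulls. Of its 10 stretches, 3 had all high-fertile bulls lower and 1 had them higher, against 3.8% and 5.7% of the 158 stretches of the members. The gene's own stretches are in these shares, including 3 of the 6 that were lower. The shares therefore cannot show whether its counts are unusual, and no share over the whole array is given. At the stretch beginning at 51602621, log2 ratios were -0.20, -1.71 and -0.80 in HF2, HF3 and HF5 against 0.22, 0.20 and 0.75 in SF1, SF4 and SF5. At the single probe beginning at 51596341 they were 1.42, 1.20 and 0.70 against -0.07, 0.44 and 0.20. At the stretch beginning at 51604830 they were -0.41, -0.18 and -1.05 against -2.07, -1.24 and -0.60, with overlapping groups. The stretch differences ran from -1.52 to 0.92.

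For H3K27me3, 21 members had a higher and 22 a lower mean in the high-fertile bulls, with a median difference of -0.03 against 0.01 over all genes and a range from -1.0 in KIF2A to 1.30 in KIF11. None of the 43 passed an adjusted p of 0.05 in limma's test, against 0% of all genes, and 1 had an unadjusted p below 0.05, against 4.07%. The groups did not overlap in 3 members, or 6.98%, against 8.57% of all genes. In 2 of them the high-fertile bulls were higher, against 4.56% of all genes, and in 1 lower, against 4.01%. The median half-width of the interval was 1.08 log2 units.

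KIF2C, a kinesin that takes microtubules apart at centromeres and spindle poles, had an H3K27me3 log2 ratio of 1.16 in HF2, 1.35 in HF3 and 0.34 in HF5, and of 0.07 in SF1, -0.64 in SF4 and 0.03 in SF5. The high-fertile bulls lay above the subfertile ones, with HF2 and HF3 well apart from the rest. The means were 0.95 ± 0.54 (SD, n = 3) and -0.18 ± 0.40 (SD, n = 3), a difference of 1.13 with a 95% confidence interval from 0.14 to 2.12 and limma's adjusted p of 1.0. It was 0.54 with the mean input of the 6 bulls and 0.27 within the slide of HF5 and SF1. The groups were separate at the stretch printed above, with a difference of 1.58, but not at the gene's other stretches, which are 1 probe each and differed by 0.17 and -0.14. In H3K4me2 the KIF2C groups overlapped, since HF5 lay at -1.0 and SF5 at -1.33.

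KIF22, a chromokinesin that pushes chromosome arms, had H3K27me3 log2 ratios of 0.27, 0.45 and 0.03 in HF2, HF3 and HF5 and of -0.43, -0.25 and -0.22 in SF1, SF4 and SF5. The groups were separate and each was narrow, with a difference of 0.55 (SE 0.35; limma's adjusted p 1.0). With the mean input of the 6 bulls the difference changed sign, to -0.11. Centred log2 input signal at KIF22 was -1.36 in HF3 and between -0.16 and 0.44 in the other bulls.

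KIF23, the motor of the centralspindlin complex that builds the cytokinetic midzone, ran the other way. Its H3K27me3 log2 ratio was -1.07 in HF2, -0.37 in HF3 and 0.10 in HF5, and 0.37 in SF1, 0.20 in SF4 and 0.68 in SF5. HF5 and SF4 were nearly level, so the groups were only just separate. The difference was -0.86 (SE 0.42; limma's adjusted p 1.0), -0.55 without HF2 and -0.26 within the slide of HF5 and SF1. KIF2A, a relative of KIF2C, had the lowest H3K27me3 difference, -1.0 (SE 0.45). It was at -0.72, -0.12 and -0.84 in HF2, HF3 and HF5 and at 0.35, -0.13 and 1.1 in SF1, SF4 and SF5. Its groups overlapped only in that HF3 lay just above SF4. The 4 probes of KIF2A differed by -2.59, -0.46, -0.83 and -0.12, so the mean leans on 1 probe. In HF5, 1 of its ChIP spots in this mark was not well above background.

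**Figure D2:**
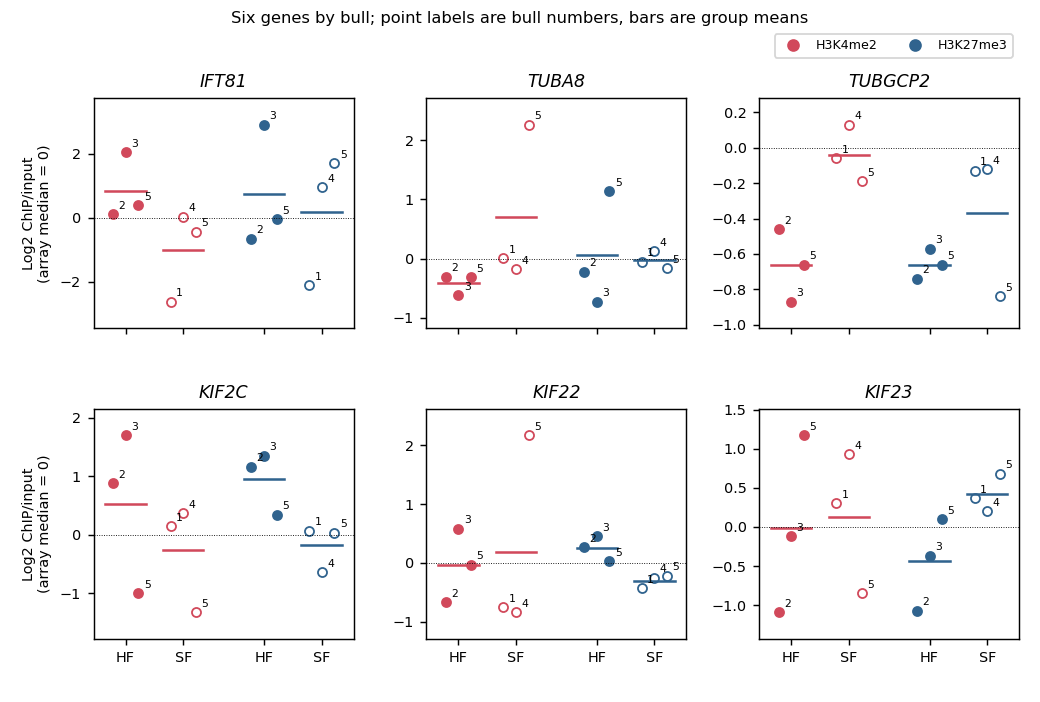
Log2 ChIP/input by bull for the 6 genes whose groups did not overlap in H3K4me2 (IFT81, TUBA8, TUBGCP2) or in H3K27me3 (KIF2C, KIF22, KIF23), with filled points for high-fertile bulls, open points for subfertile bulls, the bull's number beside each point and bars at group means. For TUBA8 in H3K4me2, SF5 at 2.26 stands apart from the other 5 bulls, whereas TUBGCP2 in that mark has all high-fertile bulls at or below -0.46 and all subfertile bulls at or above -0.19.

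Among the axonemal dyneins, the motors that bend the flagellum, 4 of 5 had a higher mean in high-fertile bulls for H3K4me2 and 3 of 5 for H3K27me3, and 0 passed the test in either mark. DNALI1, a light intermediate chain of the inner arms with 24 probes, had H3K4me2 log2 ratios of 0.11, 0.24 and 2.42 in HF2, HF3 and HF5 and of 0.40, -0.42 and -1.03 in SF1, SF4 and SF5. HF5 was far above the rest, SF1 exceeded HF2 and HF3, and the difference was 1.27 (SE 0.70), or 0.53 without HF5. In H3K27me3 the same HF5 bull lay at -0.03. DNAH7, an inner arm heavy chain, ran from -2.31 in SF4 to 1.43 in HF3 in H3K4me2 and from -1.81 in SF4 to 1.93 in HF5 in H3K27me3, with overlapping groups in both. DNAH9, an outer arm heavy chain, was high in HF3 and SF1 in both marks, at 1.42 and 1.56 in H3K4me2 and at 1.51 and 1.5 in H3K27me3, 1 bull of each group. Centred log2 input signal at DNAH9 was -2.89 in HF3 and -2.88 in SF1, against -1.69 to -0.83 in the other bulls, and H3K4me2 ChIP signal was -1.26 and -1.28 in these bulls. DNAH2, another inner arm heavy chain, was above the array median in 5 of 6 bulls in each mark, with HF2 below. The outer arm light chain gene DNAL4 differed by -0.08 and -0.67 between groups.

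Of the other IFT genes, IFT20, IFT57 and IFT122, none had groups apart in either mark. IFT20, which moves cargo out of the Golgi, was the steadiest of these, from -0.07 to 0.67 in H3K4me2. IFT57 was at -1.08 in HF3 and -0.82 in SF4 in H3K4me2 and at 1.45 in SF5 in H3K27me3. IFT122, of the complex that returns cargo to the cell body, was below the median in 4 of 6 bulls in each mark and reached -2.05 in SF4 in H3K27me3.

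The cytoplasmic dynein genes, the minus-end motor of the cell body and of return transport, had 4 of 5 lower means in high-fertile bulls in each mark, with median differences of -0.06 and -0.12, and 0 passed the test. DYNLRB1, a roadblock light chain, differed most, by -0.81 (SE 0.48) in H3K4me2 and -0.71 (SE 0.55) in H3K27me3, with overlapping groups in both. DYNLRB2, its relative enriched in testis and airway, differed by -0.16 and -0.12. The light chain gene DYNLL1 was below the array median in 5 of 6 bulls in H3K4me2, HF2 being above at 0.51, and had a mean of -0.58 (SE 0.26). Of its 30 ChIP spots on each array, 9 in HF5 and 3 in SF5 in that mark were not well above background. The mean therefore rests partly on spots at the background. The DYNLL1 stretch with 17 probes had a mean of -0.92, and its other stretches ran from -0.27 to 0.18. DYNC1I1, an intermediate chain read at 6 stretches over 357802 bases, was at -1.07 in HF5 in H3K4me2 and at 0.77 in the same bull in H3K27me3. DYNC1H1, the heavy chain, had the smallest spread between bulls of all 43 genes in H3K4me2, with an SD of 0.14, and an SD of 0.24 in H3K27me3.

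The tubulins other than TUBA8 had overlapping groups in both marks. TUBA1A and TUBA1B, the widely used alpha-tubulin genes, lie near each other on cattle chromosome 5. TUBA1A ranged from -0.89 to 0.51 in H3K4me2 and TUBA1B from -0.25 to 0.59. TUBB4B, the beta-tubulin abundant in cilia, was below the median in 5 of 6 bulls in each mark but had only 2 probes, and the bull above it was HF2 in H3K4me2 and SF5 in H3K27me3. TUBB2B had 33 probes and lay between -0.05 and 0.94 in H3K4me2, with SF5 highest. TUBB6, read at 2 promoter probes, was at 1.06 in HF3, -1.59 in HF5 and -1.35 in SF4 in H3K4me2. In HF5 the 2 probes read -0.66 and -2.52 in this mark, and 1 of the 2 ChIP spots was not well above background. TUBA3E had a mean of -0.21 in H3K4me2 and 0.08 in H3K27me3. In the gamma-tubulin complex, TUBGCP3 and TUBGCP4 differed between groups by -0.10 and 0.06 in H3K4me2 and by -0.11 and -0.06 in H3K27me3.

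Among the remaining kinesins, transport and spindle motors showed group differences from -0.74 to 0.92 in H3K4me2. The ends of this range were KIF2B, a depolymerising kinesin, at -0.74 (SE 0.52), or -0.28 without SF5, and KIF3C, a partner subunit of the heterodimeric ciliary motor family, at 0.92 (SE 0.49), or 0.05 within the slide of HF5 and SF1. KIF3A, the core subunit of the motor that drives transport up the cilium, differed by -0.13 and 0.36 and had 2 probes. KIF11, the bipolar motor that separates spindle poles, was high in HF2 alone in both marks, at 1.85 and 2.03. It was low in both marks in HF5, at -1.45 and -1.37, and in SF5, at -1.51 and -1.94. In H3K27me3 SF1 was also low, at -1.46. Centred log2 input signal at KIF11 was -1.86 in HF2, the lowest of the 6 bulls. KIF20A, of the cytokinetic midzone, and KIF15, a second spindle motor, were above the median in 5 of 6 bulls in H3K4me2, as were KIF17, KIF18B, KIF21A and KIF24.

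**Figure D3:**
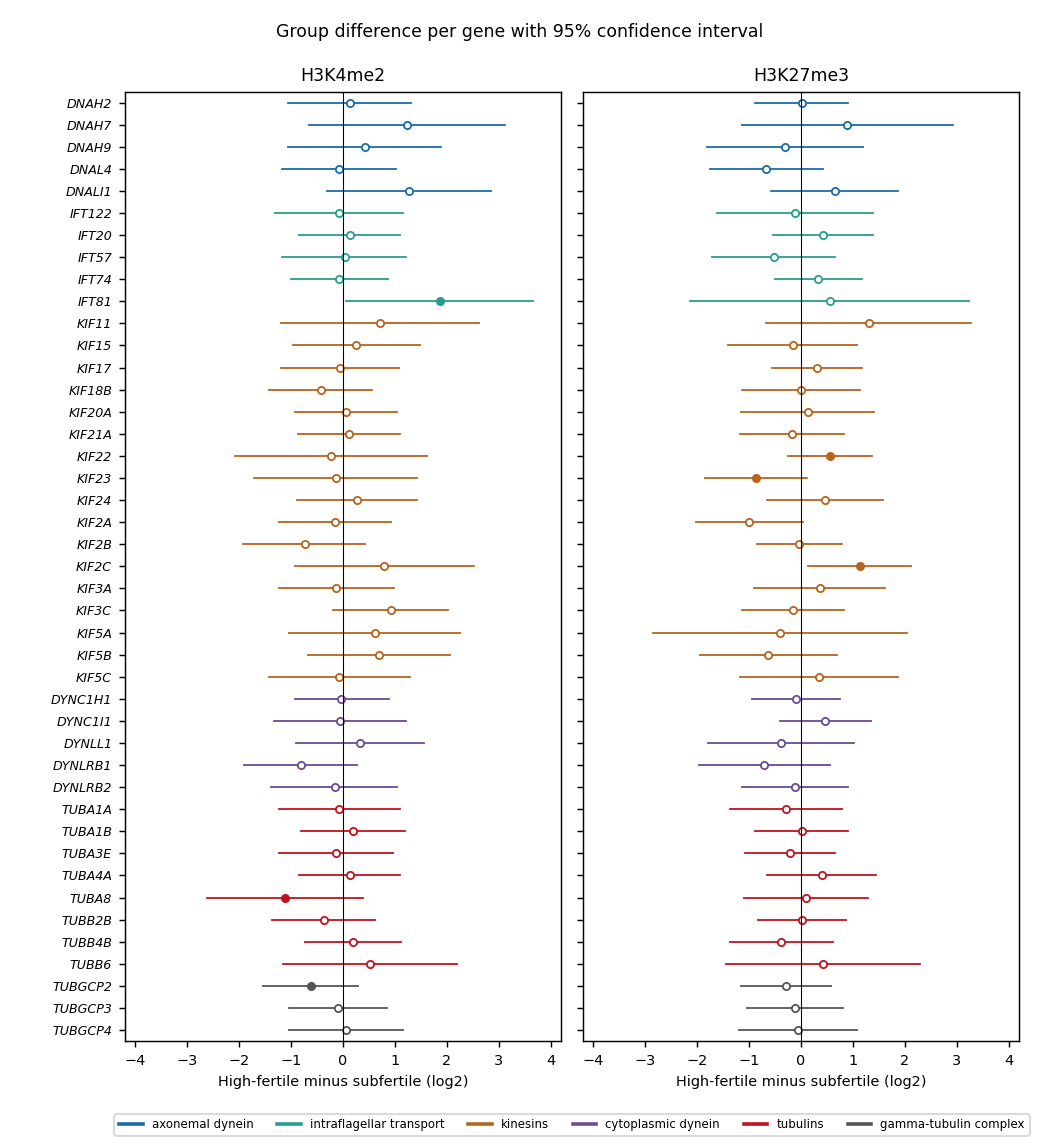
Difference between high-fertile and subfertile bulls (log2 units) for each of the 43 genes in H3K4me2 and H3K27me3, with the 95% confidence interval of limma's fit as a line, coloured by family, and filled points where the 3 bulls of one group all lie outside the range of the other. Limma's intervals, which draw on the spread of all genes as well as of these bulls, leave out 0 only for IFT81 in H3K4me2 and KIF2C in H3K27me3.

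The next comparison set each mark against the array median over all 6 bulls. In H3K4me2, 26 of 43 members had a mean above 0, with a median of 0.06, the same as over all genes. In H3K27me3, 25 had, with a median of 0.04 against 0.00. Limma's test called 0 members in either mark, against 0% of all genes, with the smallest adjusted p 0.806 and 0.823. At an unadjusted p below 0.05 there were 2 members in each, against 5.11% and 5.72% of all genes. KIF5A and KIF24 were these members in H3K4me2, and KIF5A and TUBGCP2 in H3K27me3.

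KIF5A, the conventional kinesin heavy chain of neurons, was the lowest member in both marks. Its H3K4me2 log2 ratio was -0.62, -0.92 and -1.39 in HF2, HF3 and HF5 and -1.71, -0.02 and -3.04 in SF1, SF4 and SF5. Of its 84 ChIP spots, 5 were not well above background, 1 each in HF5 and SF5 in H3K4me2 and 3 in SF4 in H3K27me3, so those values and the means that hold them rest partly on spots at the background. All 6 bulls were below the median, SF4 barely, and KIF5A was the only member of which this held, against 1.57% of all genes. The mean was -1.28 (SE 0.36; limma's adjusted p 0.806), or -0.85 in the authors' deposited log2 values and -0.82 without HF5 and SF5. In H3K27me3 it was -1.52, -2.86 and -1.76 in HF2, HF3 and HF5 and -2.32, -3.63 and 1.04 in SF1, SF4 and SF5. SF5 was the exception. The mean was -1.84 (SE 0.51; limma's adjusted p 0.823), and -2.42 without SF5. The other conventional kinesin heavy chains, KIF5B and KIF5C, had means of 0.15 and -0.06 in H3K4me2 and of 0.11 and -0.11 in H3K27me3. Of the 528 KIF5B ChIP spots, 26 were not well above background, 17 of them in SF5 in H3K4me2. No member was above the median in all 6 bulls in either mark, against 2.01% and 1.63% of all genes. KIF24, a depolymerising kinesin of the mother centriole, had the highest H3K4me2 mean, 0.56 (SE 0.24), with SF5 below 0 at -0.09.

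TUBGCP2 was the one member below the median in all 6 bulls in H3K27me3, against 1.88% of all genes, at -0.74, -0.57 and -0.66 in HF2, HF3 and HF5 and at -0.13, -0.12 and -0.84 in SF1, SF4 and SF5. SF1 and SF4 were close to the median and the other 4 bulls well below it. The mean was -0.51 (SE 0.18; limma's adjusted p 0.831). The stretch beginning at 51604830 had a mean of -0.93 in H3K4me2 and -1.05 in H3K27me3, and the one at 51596341 had 0.65 and 0.67.

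Setting the marks against each other, 27 of 43 members (62.8%) had a higher mean for H3K4me2 than for H3K27me3, against 59.8% of all genes, with a median difference of 0.07 against 0.06. Kinesins made up 15 of these 27, out of 17 measured, while 1 of 5 cytoplasmic dynein genes was among them. The differences of the kinesins were mostly small, with a median of 0.08 against 0.06 over all genes and a range from -0.36 to 0.56. Limma's test called 0 members, against 0% of all genes, and none had an unadjusted p below 0.05, against 0.602%. That fit did not pair the arrays of a bull, and the SEs below come from it. With bull as a block, none had an unadjusted p below 0.05 either, against 3.82% of all genes. KIF17, a motor known in spermatids and in sensory cilia, was the only member with H3K4me2 higher in all 6 bulls, against 2.44% of all genes. Its difference between marks was 0.20, 0.24 and 0.29 in HF2, HF3 and HF5 and 0.04, 0.03 and 1.73 in SF1, SF4 and SF5. SF5 was far above the other bulls, and the mean of 0.42 (SE 0.29) was 0.14 without that bull and 0.26 after within-array loess. TUBA4A, an alpha-tubulin, was the only member with H3K4me2 lower in all 6, against 1.09% of all genes. Its differences were -0.02, -0.33 and -1.01 in HF2, HF3 and HF5 and -0.15, -0.22 and -0.18 in SF1, SF4 and SF5, with a mean of -0.32 (SE 0.29), or -0.18 without HF5.

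The difference between fertility groups was also compared between the marks. With bull as a block, 0 of 43 members were called and 2 had an unadjusted p below 0.05, against 3.61% of all genes. The values below come from the main fit, which did not pair the arrays of a bull. In it limma's test called 0 of 43 members, against 0% of all genes. None had an unadjusted p below 0.05, against 0.661%. KIF3C had the smallest p, with a contrast of 1.08 log2 units (SE 0.62; limma's adjusted p 1.0). Its H3K4me2 values were 1.0, 0.16 and 0.33 in HF2, HF3 and HF5 and 0.28, -0.85 and -0.71 in SF1, SF4 and SF5, and its H3K27me3 values were 0.06, -0.66 and 0.24 against 0.56, -0.23 and -0.20. HF3 lay below SF1 in H3K4me2, so the groups overlapped in both marks. KIF5B had the highest contrast, 1.32 (SE 0.87), or 0.78 without SF5 and 0.89 after the normexp background correction. Of its 44 ChIP spots on each array, 17 in SF5 in H3K4me2 and 5 in HF5 in H3K27me3 were not well above background. These arrays held its lowest value in each mark, -1.05 and -1.20. The KIF5B contrast therefore rests partly on spots at the background. TUBA8 had the lowest contrast, -1.21 (SE 0.89), and KIF2B had -0.71 (SE 0.59). Without HF5 and SF5 the contrast was 0.13 in TUBA8 and 0.13 in KIF2B.

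In 3 of the bulls the 43 genes took much the same values in both marks. Across members, the log2 ratios of H3K4me2 and H3K27me3 correlated with Pearson r of 0.91 in SF1, 0.82 in HF3 and 0.73 in HF2. The r was 0.40 in SF4, 0.26 in HF5 and -0.08 in SF5. Over all genes the same bulls gave 0.86, 0.80, 0.65, 0.40, 0.44 and 0.25. Between different bulls of the same mark, r across members ran from -0.34 to 0.38 over 30 pairs, with a mean of 0.08. The highest was that of HF5 and SF5 in H3K4me2, a pair with r of 0.27 over all genes. The other pairs ran from -0.13 to 0.11 over all genes. These r run over genes, which do not replicate a condition, and the 2 arrays of a bull share its slide and its input DNA. In SF1 and HF3 a member high in one mark was high in the other: 39 and 38 of the 43 (90.7% and 88.4%) had the same sign in both, against 83.7% and 81.0% of all genes. In SF5 19 of the 43 (44.2%) had, against 59.6% of all genes.

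**Figure D4:**
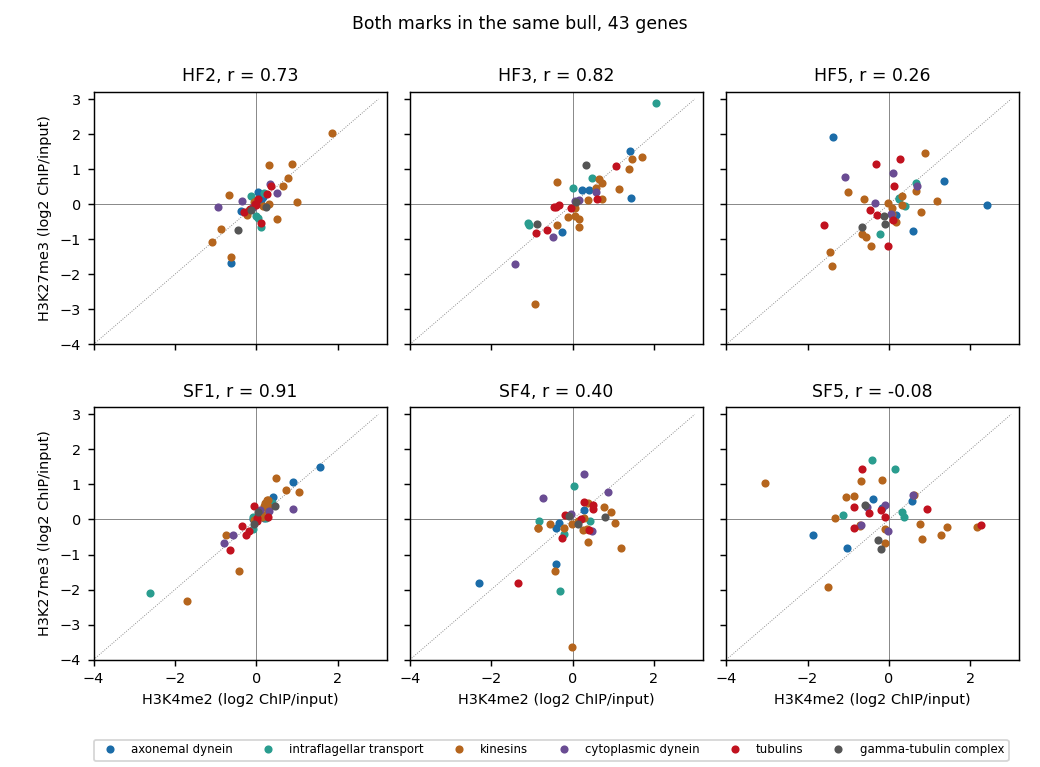
H3K27me3 against H3K4me2 log2 ratio of the 43 genes in each bull, 1 panel per bull, with points coloured by family and the dotted line marking equal values. Points follow the line in HF2, HF3 and SF1 and scatter around 0 in HF5 and SF5, where r is 0.26 and -0.08.

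SF5 and HF5 differed from the others in the H3K4me2 arrays, 1 bull of each group. ChIP signal was above background at 95.7% of probes in SF5 and 93.9% in HF5, the lowest 2 of the 12 arrays. SF5 held the lowest H3K4me2 value of 15 of the 43 members, the most of any bull, and the highest of 7. Only 13 members were above the median in that array, against 22 to 27 in the other 5. Over all genes that array also had the widest spread of the 12, with an SD of 1.08. The median there was -0.20 in the members and 0.04 over all genes. The lowest member there was KIF5A at -3.04 and the highest TUBA8 at 2.26.

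The spread between bulls differed widely among members. In H3K4me2 the smallest SDs after that of DYNC1H1 belonged to IFT74, TUBB4B and TUBGCP3, at 0.22, 0.24 and 0.25. In H3K27me3 the smallest was 0.18 in KIF2B. IFT81 had the largest in both marks, 1.51 and 1.78, followed in H3K4me2 by DNAH7 at 1.36 and KIF11 at 1.26 and in H3K27me3 by KIF5A at 1.61 and KIF11 at 1.43. These 4 genes were each read at 1 stretch, of 88 bases or less. The median SD of members was 0.57 in H3K4me2 and 0.61 in H3K27me3, against 0.64 and 0.60 over all genes. DYNC1H1 and TUBGCP3 are averages over 36 and 17 stretches, and their single stretches were not quiet. Stretch means over the 6 bulls ran from -0.88 to 1.01 in H3K4me2 and from -0.77 to 1.08 in H3K27me3 along the 44728 bases of DYNC1H1. Single bulls reached from -2.68 to 4.12 there in H3K4me2. Of its 36 stretches, 3 had all high-fertile bulls higher and 1 had them lower in H3K4me2, and 2 and 0 in H3K27me3. Over the 158 stretches of the members these shares were 5.7% and 3.8% in H3K4me2 and 4.43% and 3.16% in H3K27me3. Stretches of DYNC1H1 itself are in these shares, including 3 of the 9 that were higher in H3K4me2. Whether its counts are unusual therefore cannot be told from them. TUBGCP3 ran from -0.48 to 0.73 and from -0.49 to 0.55 over 35644 bases.

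**Figure D5:**
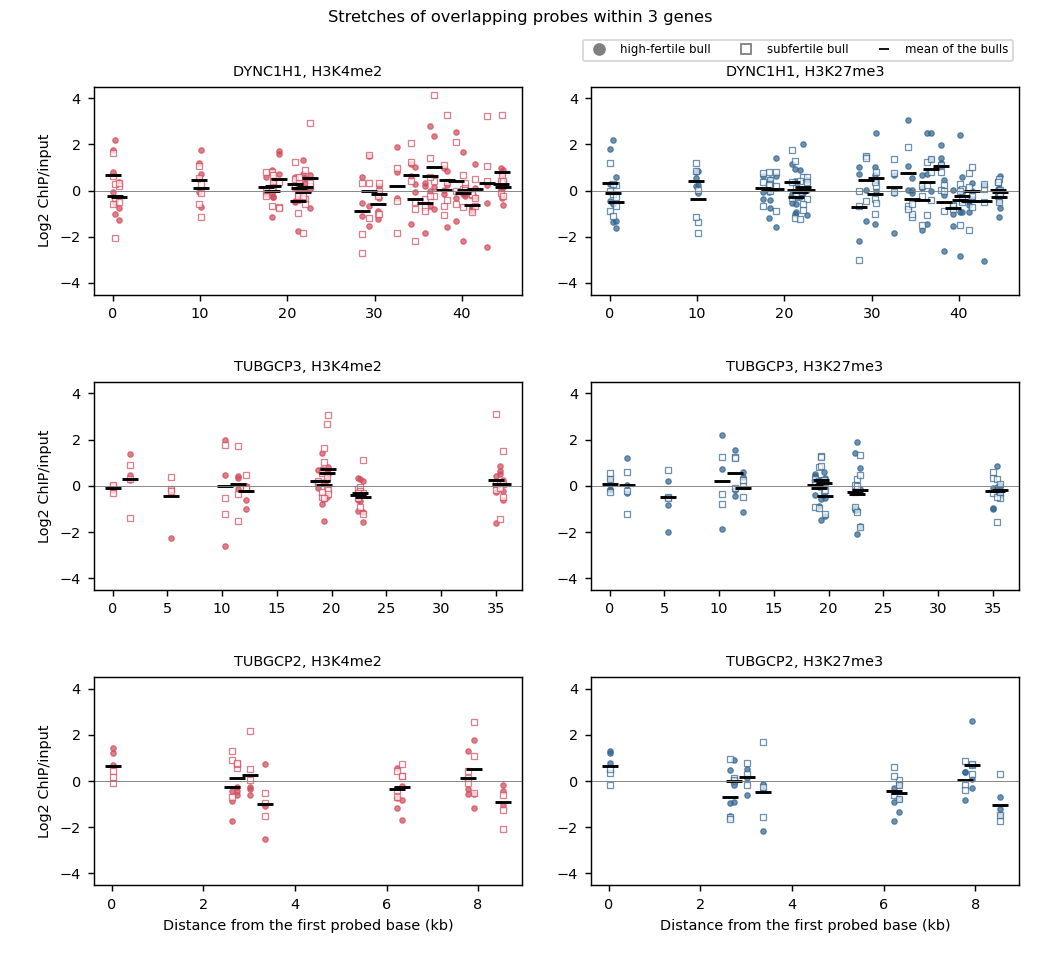
Log2 ChIP/input of each stretch of overlapping probes in DYNC1H1, TUBGCP3 and TUBGCP2, against distance from the first probed base (kb), with filled circles for high-fertile bulls, open squares for subfertile bulls and black bars for the mean of the 6 bulls. Means stay between -1.05 and 1.08 while single bulls spread over several log2 units.

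Genes that work with the members were read from 7 lists: kinesin light chains, dynactin and dynein regulators, axonemal dynein assembly factors, radial spoke and central pair genes, BBSome and related transport genes, tubulin cofactors and modifiers, and transcription factors of ciliogenesis. Of 76 such genes with enough probes, limma's test called 0 in either mark. The groups did not overlap in 5 of them (6.58%) in H3K4me2 and in 10 (13.2%) in H3K27me3, against 6.58% and 8.57% of all genes. High-fertile means were higher in 38 of 76 for H3K4me2 and in 41 for H3K27me3. TCTEX1D1, a relative of the dynein light chains, had H3K27me3 log2 ratios of 0.79, 0.81 and 0.83 in HF2, HF3 and HF5 and of -1.18, -0.54 and -0.71 in SF1, SF4 and SF5. Its groups were far apart, by 1.62 log2 units, on 2 probes, and limma's adjusted p was 1.0. TEKT3, a tektin that lines flagellar doublets, had H3K4me2 log2 ratios of -0.02, -0.35 and -1.28 in HF2, HF3 and HF5 and of 0.34, 0.42 and 1.41 in SF1, SF4 and SF5, a difference of -1.28, and its groups were also separate in H3K27me3, by -0.47. TTL, the ligase that restores tyrosine to alpha-tubulin, had H3K27me3 values of 0.56, 0.88 and 0.46 against -0.16, -0.20 and -0.53, a difference of 0.93 with limma's adjusted p of 1.0.

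Semen can hold cells other than sperm. These arrays measure DNA, so every cell carries the marker genes and their values bear on cell type only through the marks. The lists of leukocyte, epithelial and somatic testis markers had 4 of 9, 5 of 7 and 2 of 9 genes with enough probes, and limma's test called 0 of them. The median H3K4me2 value of the leukocyte list ran from -0.38 to 0.08 in high-fertile and from 0.09 to 0.60 in subfertile bulls, and those of the epithelial list from -0.15 to 0.58 and from 0.01 to 1.28. The somatic testis pair, GATA4 and HSD3B1, ran from -0.70 to -0.14 and from 0.09 to 0.76. The list of 5 measured spermatid and sperm genes ran from -0.46 to 0.26 and from 0.09 to 0.32. In H3K4me2 the leukocyte and somatic testis ranges were separate between groups and the other ranges overlapped. The leukocyte and somatic testis markers did not all go one way. CD14 and ITGB2 of the leukocyte list were 0.16 and 0.24 higher in high-fertile bulls, and CSF1R and SPI1 were at -1.08 and -0.32. Of the somatic testis pair, HSD3B1 differed by -1.49 and GATA4 by 0.02. Means of the epithelial list were higher in 3 genes and lower in 2, and all 5 spermatid and sperm genes were lower. Each list had 1 gene with separate groups, lower in high-fertile bulls, against 3.1% of all genes, and none higher. These were CSF1R, CLDN4, HSD3B1 and TEKT3. In H3K27me3 the leukocyte and somatic testis ranges overlapped, at -0.43 to 0.26 against -0.37 to 0.56 and at -0.28 to 0.51 against -0.14 to 0.59. TUBA8 and TUBGCP2 were also higher in subfertile bulls in H3K4me2 and IFT81 was lower; the part of other cells in these values was not tested.

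The 8 symbols with a single probe, DNAI1, DYNC2LI1, DYNLL2, DYNLT1, TUBB1, TUBB3, TUBB4A and TUBG2, were not tested. Their values ran from -3.27 to 4.2 in H3K4me2 and from -3.65 to 2.38 in H3K27me3, against -2.62 to 2.26 and -2.11 to 2.90 in the 7 members with 2 probes. DNAI1, an outer arm intermediate chain, stayed between -0.35 and 0.58 in H3K4me2.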

How the data were processed

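ChIP and input DNA of 6 bulls were hybridised to 12 two-colour arrays, with ChIP in Cy5 throughout. The authors' deposited spot intensity values come from Agilent Feature Extraction 10.7, per the submitters' processing notes, and are already background-subtracted and dye-normalized, per the file headers; the quality flags of the same deposited files are 0 or 1. The authors' deposited table of log2 ratios served as an alternative. Its columns correlated at 0.741 to 0.994 with the ratios computed here, which settled direction but cannot settle scale. The lowest of these were 0.741 in SF5 and 0.826 in HF5, both in H3K4me2. After within-array loess the correlations were 0.983 to 0.995, so the deposited table and loess are close to each other as alternatives. The column medians of the deposited table ran from -0.13 to 0.10, so its centring is not exact and is not stated.

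Probes were kept where 6 or more of the 12 arrays had input well above background (177372 of 177440), outlier spots were set missing (13 to 546 per array), and log2 Cy5/Cy3 was centred on each array's median. A gene is the mean of at least 2 probes. Comparisons used limma 3.58.1 in R 4.3.3 on 6805 genes (lmFit, eBayes, two-sided, Benjamini-Hochberg at 0.05), tested on simulated data. Fertility groups were compared on the 6 arrays of a mark, and marks on all 12 arrays without pairing the arrays of a bull. Only 3 bulls per group limit the precision. With 3 against 3, an exact permutation test cannot go below 0.1.

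Per the labels both arrays of a bull come from 1 animal, and their deviations from the group means correlated at r from 0.317 to 0.747; bull as a block was an alternative. HF5 and SF1 shared a slide, and elsewhere slide and bull cannot be told apart. Members and lists were chosen with earlier results of these data known. Genes given bull by bull were those with non-overlapping groups, with one sign in all 6 bulls, with the smallest p between marks, or with the most probes of a family; others were named for their role or chosen after their values were seen.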

Additional observations from a re-analysis of the deposited data

How the results depend on the processing

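The 102 fits were the main fits and those under the alternatives (loess, normexp, the deposited table, a correction for G and C, the mean input, the median over probes, other probe filters, bull as a block and leaving out bulls). In these fits 0 genes were called, and 0 to 9 members had an unadjusted p below 0.05 in limma's test. The 9 (20.9%) were in H3K4me2 against the array median with the mean input, where 12.2% of all genes had. With bull as a block, 0 members were called in the comparison of marks and 0 in the comparison of fertility differences between marks (0 and 2 members, or 4.65%, had an unadjusted p below 0.05, against 3.82% and 3.61% of all genes in these fits), and no call changed. The median fertility difference of the members in H3K4me2, 0.03, was -0.13 within the slide of HF5 and SF1; leaving out single bulls gave -0.03 to 0.13, and -0.05 to 0.06 for H3K27me3. Among the genes named for non-overlapping groups, for one sign in all 6 bulls or for the smallest p between marks, the values that reversed were KIF22 in H3K27me3, -0.11 with the mean input of the 6 bulls, and TUBA8 and KIF2B in the contrast between marks, both 0.13 without HF5 and SF5; the cause was not tested. Smaller values of other genes also changed sign. Examples are the TUBGCP3 fertility difference, -0.10 in H3K4me2 and -0.11 in H3K27me3, which was 0.11 and 0.10 without SF1 and 0.12 in H3K4me2 with the median over probes, and the KIF5B means, 0.15 and 0.11, which were -0.08 and -0.11 after normexp. Slide as a random block was not run, because only 2 of 6 arrays of a mark share a slide and no correlation could be estimated. No paired analysis was possible for the fertility groups because they hold different bulls. The 3 bulls per group limit what can be seen: the smallest half-width of a member's interval was 0.90 in H3K4me2 and 0.81 in H3K27me3.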
